A study of Mus musculus with 8 samples.

Results

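Peaks of open chromatin were examined at 10 genes that nearly all white blood cells use and that neurons are not known for: Ptprc, Itgb2, Cd53, Laptm5, Vav1, Rac2, Arhgdib, Coro1a, Lcp1 and Ikzf1. Peaks counted for a gene if they overlapped it or the 10000 bp on either side of it in the mouse build GRCm38. The 10 genes, of 21887 protein-coding genes, held 114 of the 189914 regions formed by merging overlapping peaks of all 8 lists. The genes were chosen by values already seen in these lists, namely the presence, number and strength of their peaks after each virus, so their differences between groups are given as a description, without a test.

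Chromatin accessibility was measured by ATAC-seq, in which a transposase cuts and tags accessible DNA, in sorted retinal ganglion cells (RGCs) from adult C57BL/6J mice. RGCs are the neurons whose axons form the optic nerve. AAV2-GFP (control, 3 libraries), AAV2 carrying Ezh2 (3 libraries) or AAV2-Ezh2-Y726D (2 libraries) was injected into the vitreous body, optic nerve crush (ONC) followed 2 weeks later, and 50000 cells per library were sorted 3 days after ONC. Every group therefore received virus and ONC, and no uninjured or virus-free library was analysed here. Ezh2 is the enzyme of the Polycomb complex that methylates histone H3 at lysine 27, a mark of silenced genes, and Ezh2-Y726D is a form without catalytic activity. Cells were sorted for surface CD90.2 (Thy1), and dead cells were removed with a dye. Thy1 is known from T cells as well as RGCs, and AAV2 in the vitreous body can enter retinal cells other than RGCs, which limits the libraries as a model of RGCs alone. The labels do not say whether replicates came from separate mice, so the p-values below measure only the spread between these libraries.

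As background, white blood cells are recognised by a small set of genes that act in almost all of their lineages. Ptprc encodes CD45, the receptor phosphatase that defines leukocytes at the surface, and others encode adhesion molecules, the hematopoietic machinery of small GTPases and actin-binding proteins that let these cells crawl and engulf. Their regulatory regions are typically bound by PU.1 and other ETS factors, RUNX factors and Ikaros, the product of Ikzf1. In the retina the resident cells that use these genes are microglia, and blood leukocytes can be found there after injury.

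Promoters are shown first for 4 of the 10 genes, because they range from promoters without a peak in Ezh2-Y726D libraries (Cd53, Ptprc, Vav1) to one with a peak in all 8 (Ikzf1). Each line holds the 250 bases before the start of the gene, 5′ to 3′ on the strand of the gene, from RefSeq (GRCm38.p6). Capitals mark a match to a motif searched for, and the Ikzf1 promoter held none. The promoters of Laptm5 and Arhgdib, not printed, also had no Ezh2-Y726D peak and held no match. Those of Coro1a and Lcp1, also not printed, held no match either. The windows lie at chr3:106790150-106790399 (Cd53, minus strand), chr1:138175306-138175555 (Ptprc, minus strand), chr17:57278850-57279099 (Vav1, plus strand) and chr11:11685675-11685924 (Ikzf1, plus strand).
Cd53: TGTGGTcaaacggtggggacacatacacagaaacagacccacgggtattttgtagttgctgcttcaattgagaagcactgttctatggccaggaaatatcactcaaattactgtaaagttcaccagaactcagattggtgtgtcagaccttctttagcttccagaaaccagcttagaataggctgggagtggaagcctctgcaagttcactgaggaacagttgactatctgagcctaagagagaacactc
Ptprc: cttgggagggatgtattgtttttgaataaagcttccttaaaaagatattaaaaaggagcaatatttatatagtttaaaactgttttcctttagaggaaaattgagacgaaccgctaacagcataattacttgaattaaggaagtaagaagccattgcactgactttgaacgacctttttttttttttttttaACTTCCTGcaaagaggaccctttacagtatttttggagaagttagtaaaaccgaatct
Vav1: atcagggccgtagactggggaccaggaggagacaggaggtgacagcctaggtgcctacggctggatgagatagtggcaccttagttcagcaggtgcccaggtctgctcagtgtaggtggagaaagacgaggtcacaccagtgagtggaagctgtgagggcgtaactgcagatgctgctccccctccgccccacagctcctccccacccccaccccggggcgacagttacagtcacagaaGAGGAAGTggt
Ikzf1: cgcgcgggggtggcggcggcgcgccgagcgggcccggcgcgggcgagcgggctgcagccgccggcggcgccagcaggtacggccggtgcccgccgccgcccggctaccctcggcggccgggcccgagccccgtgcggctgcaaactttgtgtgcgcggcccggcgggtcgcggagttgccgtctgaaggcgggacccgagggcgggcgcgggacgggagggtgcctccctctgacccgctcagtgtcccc

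The searched motifs were GAGGAAGT (PU.1), CAGGAAGT (other ETS factors), TGTGGT (RUNX), GAAANNGAA (interferon regulatory factors) and TGANTCA (AP-1), on both strands. The PU.1 letters stood at position 240 of the Vav1 window, counted from 1 at its 5′ end, next to the start of the gene, and are found in 2.18% of 17492 promoters. In the Ptprc window the ETS letters lay at position 193 on the opposite strand (2.64% of promoters), and the RUNX letters opened the Cd53 window at position 1 (12.5% of promoters). A match is a string of letters, not a measured binding site. RefSeq promoters were matched for 8 of the 10 genes. Rac2 and Itgb2 had no entry.

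Depth cannot be read from peak lists and is unknown. The lists were of similar length, with 112939 to 133674 peaks in GFP, 126271 to 135895 in Ezh2 and 124666 and 128728 in Ezh2-Y726D libraries. Over all protein-coding genes the summed number of peaks was 101.4% of the GFP mean in Ezh2-Y726D and 1.076 times the GFP mean in Ezh2 libraries. All 15 RGC marker genes, among them Rbpms, Pou4f1, Nefl and Slc17a6, had a peak in every library, but so did all 10 Müller glia markers and all 28 genes of another leukocyte list, so the presence of peaks does not check the RGC label.

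All 10 pan-leukocyte genes had at least 1 peak in every GFP and every Ezh2 list, and 9 of 10 did in both Ezh2-Y726D lists. Their summed number of peaks was 66, 72 and 83 in GFP replicates 1 to 3, 90, 89 and 98 in the Ezh2 replicates, and 36 in each Ezh2-Y726D replicate. The groups did not overlap. The mean was 73.7 ± 8.62 (SD, n = 3) in GFP, 92.3 ± 4.93 (SD, n = 3) in Ezh2 and 36 (n = 2) in Ezh2-Y726D libraries, so Ezh2-Y726D lists held 48.9% of the GFP number at these genes while lists as a whole were no shorter. Both comparisons share the 3 GFP libraries. A lower number of peaks in such bulk libraries can come from fewer cells of a type or from less open chromatin per cell, and these cannot be told apart. With the lists trimmed to equal length, the difference of Ezh2 from GFP was 1.1 instead of 1.87 peaks per gene.

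For 9 of the 10 genes, all but Coro1a, each Ezh2-Y726D list had fewer peaks than each GFP list. Over all 18690 genes with a peak this held for 12% of genes, and for 16.6% of the 10208 genes with as many GFP peaks as these. In 2 of the 10, Ikzf1 and Itgb2, each Ezh2 list had more peaks than each GFP list (8.11% of all genes), and in 9 of the 10, again all but Coro1a, each Ezh2-Y726D list had fewer peaks than each Ezh2 list (20.9% of all genes). Since the genes were picked for these numbers, the shares describe them and test nothing.

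**Figure D1:**
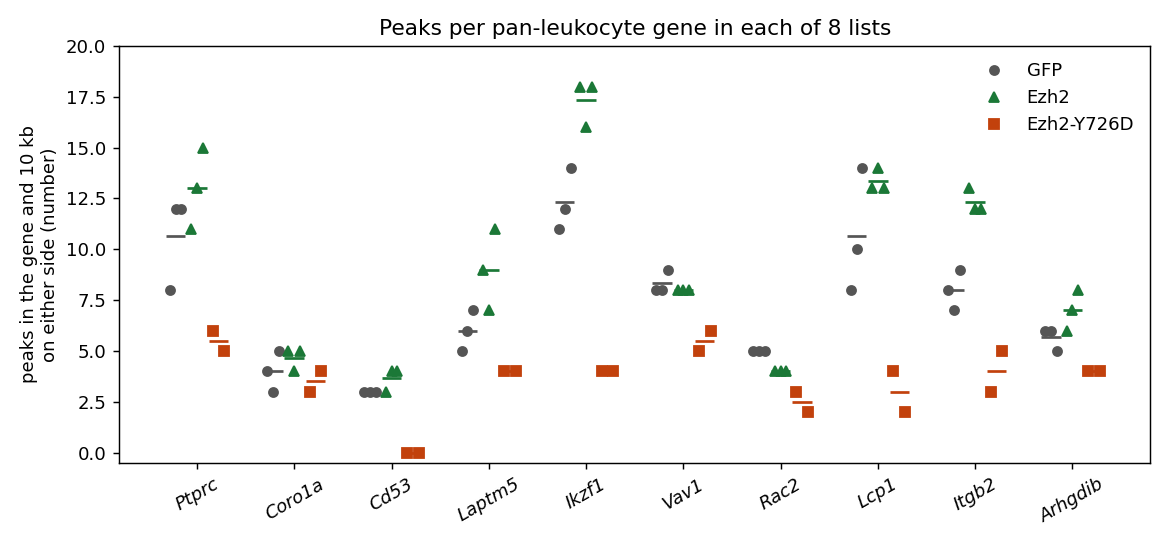
Number of peaks in each gene and 10 kb on either side (vertical axis) for the 10 pan-leukocyte genes (horizontal axis), with 1 symbol per library (GFP circles, Ezh2 triangles, Ezh2-Y726D squares) and a bar at each group mean. The squares lie under all circles for every gene but Coro1a, and reach 0 for Cd53.

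Among the surface molecules, Ptprc (chr1:138062859-138175756) had 8, 12 and 12 peaks in GFP, 11, 13 and 15 with Ezh2 and 6 and 5 with Ezh2-Y726D. GFP and Ezh2 overlapped, and only the Ezh2-Y726D lists stood apart. The region over its start (chr1:138174781-138175854) had a peak in all GFP lists, at percentiles of 69.1, 26.3 and 57.8 of all peaks in the list ranked by fold (the pileup over the local background), and in all Ezh2 lists, at 46.6, 45.5 and 48.5. Neither Ezh2-Y726D list had a peak there. By contrast, the strongest Ptprc region, inside the gene (chr1:138135893-138136858), was present in all 8 lists, at percentiles of 81.2, 81.9 and 84.6 in GFP, 75.4, 81.6 and 74.9 with Ezh2 and 80.0 and 78.9 with Ezh2-Y726D. With Ezh2-Y726D, Ptprc thus had no peak at its start but had its strongest internal one.

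Itgb2 (chr10:77530329-77565708) encodes CD18, the shared chain of the beta-2 integrins with which leukocytes adhere. It had 8, 7 and 9 peaks in GFP, 13, 12 and 12 with Ezh2 and 3 and 5 with Ezh2-Y726D, with no overlap between any of the groups. Of its 15 regions, 4 had a peak in every GFP and no Ezh2-Y726D list, including the region over the low-coordinate boundary of the gene at chr10:77529946-77530905 (the annotation table used gives no strand for Itgb2; percentiles 55.7, 64.6 and 60.9 in GFP, 52.0, 71.8 and 55.6 in Ezh2) and a strong internal region at chr10:77550850-77551440 (81.5, 68.5 and 85.8 in GFP, 83.0, 69.3 and 56.3 in Ezh2). Another 3 regions had a peak in every Ezh2 and no GFP list, of which the strongest, at chr10:77556663-77557048, reached percentiles of 36.7, 8.85 and 28.5. The regions found with Ezh2 and not with GFP thus held weak peaks, whereas those absent with Ezh2-Y726D included strong ones. An internal region at chr10:77554200-77555069 went the other way, at 76.3 and 72.4 with Ezh2-Y726D. There, only GFP replicate 3 (15.8) and Ezh2 replicates 2 and 3 (5.38 and 19.5) had a peak among the other libraries.

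Cd53 (chr3:106758861-106790149), a tetraspanin of the leukocyte membrane, was the gene without any peak in Ezh2-Y726D libraries. It had 3, 3 and 3 peaks in GFP, 3, 4 and 4 with Ezh2 and 0 and 0 with Ezh2-Y726D. The region over its start (chr3:106789934-106790535, printed in part above) lay at percentiles of 58.9, 54.9 and 65.2 in GFP and 50.8, 53.4 and 48.1 in Ezh2 libraries. Its internal regions at chr3:106787882-106789289 and chr3:106784936-106785600 were also in every GFP and Ezh2 list, at percentiles between 29.2 and 61.9. A peak absent from a list was not detectable at the depth and threshold of that list, which does not show that the chromatin was closed. Only 145 protein-coding genes had a peak in every GFP list and none in either Ezh2-Y726D list.

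Laptm5 (chr4:130912890-130936148), a lysosomal membrane protein of blood cells, had 5, 6 and 7 peaks in GFP, 9, 7 and 11 with Ezh2 and 4 and 4 with Ezh2-Y726D. GFP and Ezh2 met at 7 peaks. The region over its start (chr4:130913118-130914493) lay at percentiles of 58.6, 62.6 and 53.3 in GFP, 41.4, 39.9 and 43.8 in Ezh2 libraries and 9.23 in Ezh2-Y726D replicate 1, and replicate 2 had no peak. The low peak of replicate 1 lay outside the promoter window itself. Averaged only over lists with a peak, the highest mean percentile was that of a region inside the gene (chr4:130921813-130922444), at 45.5 next to 44.1 for the start. This internal region had no peak in GFP replicate 1 or in Ezh2-Y726D libraries. It lay at 24.7 and 27.3 in GFP replicates 2 and 3, below the start, and at 55.1, 58.2 and 62.1 in Ezh2 libraries. Another internal region (chr4:130920938-130921601) ranked highest with Ezh2-Y726D, at 20.5 and 56.7. It lay at 16.5, 17.4 and 6.51 in GFP and 6.88, 5.35 and 6.23 in Ezh2 libraries.

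The genes of small GTPase signalling came next. Vav1 (chr17:57279100-57329236), an exchange factor that switches Rac and related GTPases on, had 8, 8 and 9 peaks in GFP, 8, 8 and 8 with Ezh2 and 5 and 6 with Ezh2-Y726D. The peak at its start (chr17:57278868-57279567), which holds the PU.1 letters shown above, was weak, at percentiles of 2.67 and 1.94 in GFP replicates 1 and 3, with none in replicate 2, and 18.3, 29.7 and 28.3 in Ezh2 libraries. No Ezh2-Y726D library had it. An internal region at chr17:57284858-57285558 likewise had no Ezh2-Y726D peak. It was stronger, with percentiles of 63.5, 63.5 and 63.5 in GFP and 62.6, 56.4 and 68.7 in Ezh2 libraries, and there GFP and Ezh2 overlapped. In turn, the strongest Vav1 region, downstream of the gene (chr17:57335360-57336228), was in all 8 lists at percentiles between 81.6 and 91.6. Of 5 flanking regions of Vav1, 4 were in all 8 lists, against 1 of the 4 regions within the gene or over its start.

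Rac2 (chr15:78559169-78572783), the Rac GTPase of blood cells, had 5, 5 and 5 peaks in GFP, 4, 4 and 4 with Ezh2 and 3 and 2 with Ezh2-Y726D. It was the gene in the set with fewer peaks in every Ezh2 list than in every GFP list. No region was lost with Ezh2, however, since the peaks lay in 4 merged regions in every GFP list and in the same 4 in every Ezh2 list. At the high-coordinate boundary of the gene, a region (chr15:78571474-78573285) had percentiles of 69.3, 67.9 and 70.1 in GFP and 71.2, 77.9 and 66.2 in Ezh2 libraries and no Ezh2-Y726D peak. An internal region at chr15:78563479-78564765 was as strong, at 83.4, 70.7 and 72.7 in GFP and 74.0, 67.0 and 66.6 in Ezh2 libraries, and was likewise without a peak in Ezh2-Y726D lists. Of the 4 Rac2 regions with an Ezh2-Y726D peak, 3 had one in no other group. These 3 lay outside the gene and were each in only 1 Ezh2-Y726D list, at low percentiles of 13.4, 6.33 and 6.02. The other (chr15:78581077-78582290), in all 8 lists, lay 8294 bp from the gene over the promoter of Gm36738. Rac2 thus had no Ezh2-Y726D peak over the gene itself. For Rac2, too, the annotation table used gives no strand.

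Arhgdib (chr6:136923655-136941899), which encodes the inhibitor that holds such GTPases in the cytosol of blood cells, had 6, 6 and 5 peaks in GFP, 6, 7 and 8 with Ezh2 and 4 and 4 with Ezh2-Y726D. The peak at its start (chr6:136940455-136942061) was modest, at percentiles of 24.3, 33.2 and 26.9 in GFP and 30.4, 28.9 and 26.3 in Ezh2 libraries, and was absent with Ezh2-Y726D. Its strongest region, inside the gene (chr6:136930422-136931196), was in all 8 lists but ranked lower with Ezh2-Y726D, at 80.7 and 76.7, than in GFP (97.7, 91.1 and 97.1) or Ezh2 libraries (95.8, 95.3 and 93.7).

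Coro1a (chr7:126699774-126704816), an actin-binding coronin of leukocytes, differed least between groups. It had 4, 3 and 5 peaks in GFP, 5, 4 and 5 with Ezh2 and 3 and 4 with Ezh2-Y726D, and all groups overlapped. The region over its start (chr7:126703525-126705159) was in all 8 lists and ranked higher with Ezh2-Y726D, at percentiles of 80.1 and 71.5, than in GFP (68.5, 67.3 and 63.4) or Ezh2 libraries (47.9, 50.0 and 56.7). The strongest region assigned to Coro1a (chr7:126695138-126696403, 85.4 to 94.9 over the lists) lies over the promoters of Bola2 and Slx1b.

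Lcp1 (chr14:75131105-75230842) encodes L-plastin, which bundles actin. It had 8, 10 and 14 peaks in GFP, 13, 14 and 13 with Ezh2 and 4 and 2 with Ezh2-Y726D, and GFP replicate 3 reached the Ezh2 level. The region over its start (chr14:75130231-75131709), shared with the promoter of Lrrc63, was among the strongest 10% of every list, from 92.4 to 96.6. Inside the gene, 4 of 13 regions had a peak in every GFP and no Ezh2-Y726D list. One of them, at chr14:75192441-75193270, lay at percentiles of 45.9, 53.3 and 42.0 in GFP and 48.0, 44.3 and 44.4 in Ezh2 libraries. The start of Lcp1 thus carried a peak in every library while internal peaks were missing with Ezh2-Y726D.

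Ikzf1 (chr11:11684962-11772930), which encodes the lymphoid transcription factor Ikaros, had the widest difference between group means in number of peaks, though Lcp1 (28.1%) and Cd53 (0%) stood lower as a percent of GFP. It had 11, 12 and 14 peaks in GFP, 18, 16 and 18 with Ezh2 and 4 and 4 with Ezh2-Y726D, so the Ezh2-Y726D mean was 32.4% of the GFP mean. The region over its start (chr11:11684661-11686432), which also overlaps the promoter of Gm11999, was in all 8 lists at percentiles of 42.3, 53.1 and 53.1 in GFP, 51.0, 45.5 and 59.1 with Ezh2 and 65.7 and 53.9 with Ezh2-Y726D. Inside the gene, 5 of 13 regions had a peak in every GFP and no Ezh2-Y726D list. The strongest of them, at chr11:11766030-11766659, had percentiles of 44.3, 73.0 and 50.9 in GFP and 79.3, 76.3 and 81.2 in Ezh2 libraries. One internal region (chr11:11711577-11712510) went the other way and ranked highest with Ezh2-Y726D, at 73.8 and 85.0, against 52.0, 44.4 and 49.6 in GFP and 35.2, 56.5 and 59.5 in Ezh2 libraries.

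**Figure D2:**
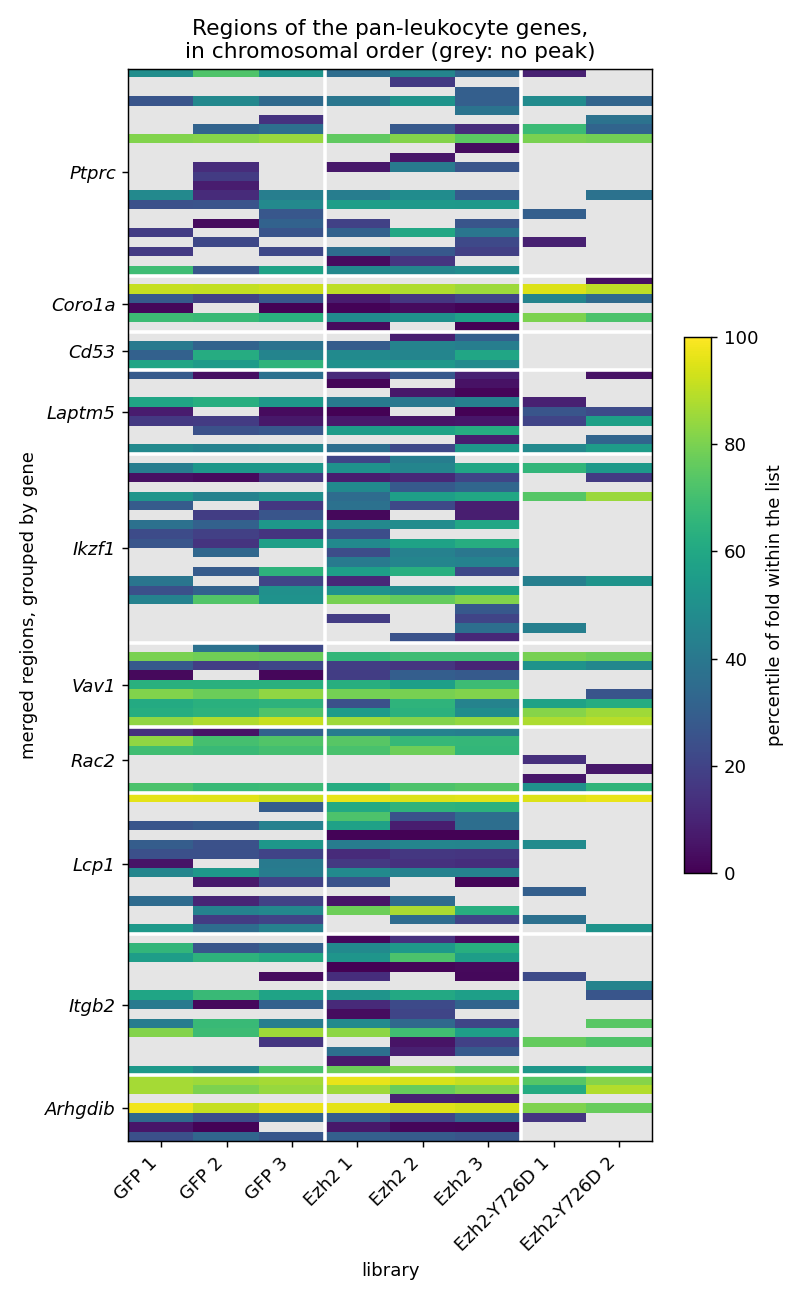
Percentile of fold within the list (colour, 0 to 100; grey where the list has no peak) for the 114 merged regions of the 10 genes (rows, in chromosomal order within a gene) in the 8 libraries (columns). Rows that are coloured in all GFP and Ezh2 columns and grey in both Ezh2-Y726D columns number 21, and no row is coloured in both Ezh2-Y726D columns and grey in all GFP columns.

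Over the 10 genes together, 23 of the 114 regions (20.2%) had a peak in every GFP and no Ezh2-Y726D list, against 4.72% of all 189914 regions. In the reverse direction, with a peak in both Ezh2-Y726D and no GFP list, there were 0 of 114 regions, against 4.77% of all (4 with either Ezh2-Y726D replicate left out). Of the 23 regions, 21 also had a peak in every Ezh2 list. Between Ezh2 and Ezh2-Y726D, 41 regions (36%) were in every Ezh2 and no Ezh2-Y726D list (8.96% of all) and 0 in both Ezh2-Y726D and no Ezh2 list (6.14% of all), or 5 without Ezh2-Y726D replicate 1 and 4 without replicate 2. Between Ezh2 and GFP the numbers were small, with 7 regions (6.14%) in every Ezh2 and no GFP list (2.72% of all) and 1 (0.877%) in every GFP and no Ezh2 list (1.68% of all). The 7 regions became 3 when only peaks with a −log10 q of at least 5 counted, 4 with lists of equal length and 11 without Ezh2 replicate 1.

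Of the 23 regions, 16 lay inside the genes, as did 73 of all 114, with 3 over a promoter (9 of 114), 2 at another gene boundary (3 of 114) and 2 in the flanks (29 of 114). By their GFP strength they were ordinary for regions of this pattern. Their mean GFP percentile had a median of 40.5 (16.9 to 78.6), and the median for all 8970 regions in every GFP and no Ezh2-Y726D list was 39.2. For the 20 regions of the 10 genes that were in all 8 lists the median was 66.4, next to 67.9 for all 69493 such regions. Those 20 made up 17.5% of the regions of the 10 genes, against 36.6% of all regions.

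The promoters differed in base composition as they did in peaks. Of the 8 genes with a RefSeq promoter, the window around the start carried a peak in both Ezh2-Y726D lists for Coro1a, Ikzf1 and Lcp1, whose 250 bases before the start hold 13, 44 and 16 CpG dinucleotides. No Ezh2-Y726D peak was over the window of Cd53, Arhgdib, Ptprc, Laptm5 or Vav1, which hold 2, 2, 4, 5 and 7 CpG. These values, from the most upstream RefSeq promoter of each gene, do not overlap. A further Ikzf1 promoter (chr11:11689927-11690176) held 1 CpG and had a peak in 2 GFP, 3 Ezh2 and 0 Ezh2-Y726D lists. Of all 17492 promoters, 10320 had a peak in all 8 lists, with a median of 17 CpG, and 201 (1.15%) had a peak in every GFP and no Ezh2-Y726D list, with a median of 4. Promoters without a peak in any list had a median of 2.

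**Figure D3:**
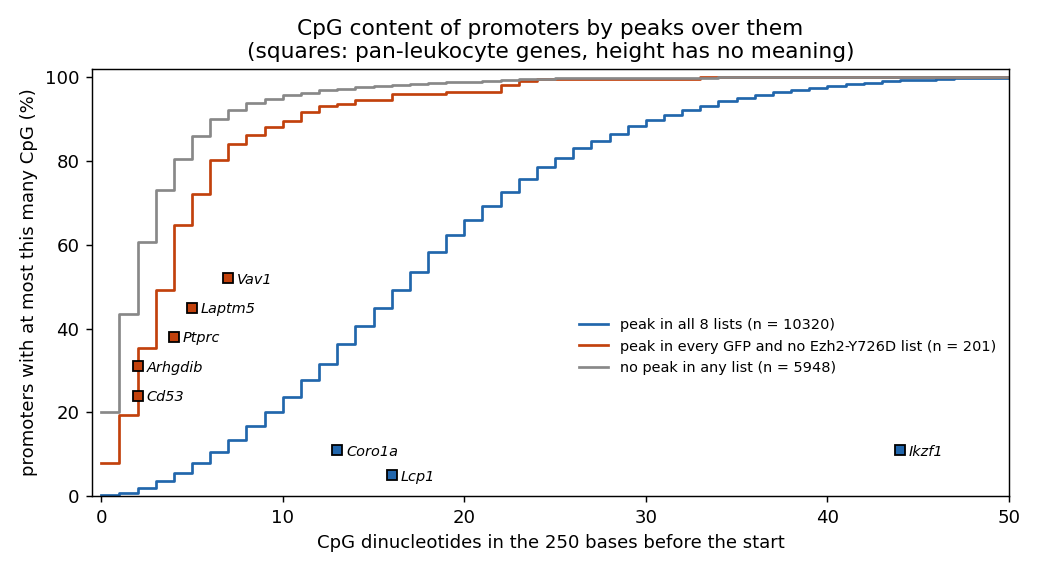
Share of promoters (vertical axis, percent) with at most the given number of CpG dinucleotides in the 250 bases before the start (horizontal axis), for promoters with a peak in all 8 lists, in every GFP and no Ezh2-Y726D list, or in no list; squares mark 8 pan-leukocyte genes, blue with and orange without a peak in Ezh2-Y726D libraries. The 3 blue squares lie at 13 or more CpG and the 5 orange ones at 7 or fewer. Each square is the most upstream promoter of its gene.

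The strongest peak of each gene told less than the number of peaks. Its percentile, as a median over the genes with a peak, was 82.5, 77.4 and 85.2 in GFP, 81.1, 80.9 and 78.0 with Ezh2 and 80.0 and 85.0 with Ezh2-Y726D, and the groups overlapped. The difference of Ezh2-Y726D from GFP was 0.801 percentile points by fold and −8.89 points when peaks were ranked by −log10 p instead, and that of Ezh2 from GFP was −1.69 and 6.09 points, so no direction can be given. Cd53, without a peak, is missing from the Ezh2-Y726D medians.

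Among the 20 regions with a peak in all 8 lists, both Ezh2-Y726D percentiles were below all GFP percentiles in 4 (20%, against 20.4% of all 69493 regions) and above them in 7 (35%, against 21.1%). The Ezh2 percentiles were below all GFP percentiles in 4 (20%, against 11.5%) and above in 2 (10%, against 12.8%). Ranks within a list were turned into normal scores, a scale in which 1 unit is 1 SD of the ranks. The median difference of the 20 regions from GFP was 0.0792 units for Ezh2-Y726D (all regions −0.0139) and −0.25 units for Ezh2 (all regions 0.01). These regions had to have a peak in both Ezh2-Y726D lists, so they leave out any region whose peak was present in only 1 of them, such as the start of Laptm5.

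The regions nearest the 10000 bp limit show what it decided. Just inside lay regions of Laptm5 (9852 bp from the gene, in 3 GFP, 3 Ezh2 and 1 Ezh2-Y726D lists), Vav1 (9539 bp, in 2, 0 and 0) and Arhgdib (9509 bp, in 3, 3 and 2). Just outside lay regions of Ptprc (10162 bp, in 1, 3 and 1 lists), Rac2 (10603 bp, in 0, 2 and 0) and Laptm5 (10678 bp, in 3, 3 and 2). Without the margin, the Ezh2-Y726D lists had on average 2 fewer genes with a peak than the GFP lists, instead of 1.

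Other genes of white blood cells gave a comparison from a list of 28, chosen for their known use in leukocytes. All 28 had a peak in every library, and their summed number of peaks was 203 to 256 in GFP, 266 to 281 in Ezh2 and 142 and 158 in Ezh2-Y726D libraries, where it was 65.8% of the GFP mean. Each Ezh2-Y726D list had fewer peaks than each GFP list for 22 of the 28 genes (12% of all genes), and 5 of the 28 had more in each Ezh2 list than in each GFP list (8.11% of all genes). Selplg, the P-selectin ligand, is an example from the first group, with 6, 4 and 8 peaks in GFP, 10, 10 and 9 with Ezh2 and 1 and 2 with Ezh2-Y726D. Of their 355 regions, 64 (18%, against 4.72% of all regions) were in every GFP and no Ezh2-Y726D list and 10 (2.82%, against 4.77%) the reverse.

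In 86 regions of these 28 genes with a peak in all 8 lists, ranks were tested with limma as part of all 69493 regions, with Benjamini-Hochberg adjustment. These 86 leave out every region that lacks a peak in any list. The 64 regions in every GFP and no Ezh2-Y726D list could therefore not be called lower. Relative to GFP, 17 regions (19.8%, against 3.55% of all) ranked higher with Ezh2-Y726D and 4 (4.65%, against 4.65% of all) ranked lower. The numbers did not hold up to a change of rank or library. By the rank of −log10 p they were 3 higher and 9 lower, without Ezh2-Y726D replicate 1 they were 1 and 1, and without replicate 2 they were 5 higher. Without GFP replicate 2 or GFP replicate 3, 11 ranked higher in each case. The largest difference was at a region inside Runx1 (chr16:92823268-92824471), a transcription factor of blood stem cells, with percentiles of 2.48, 0.772 and 6.12 in GFP, 1.97, 3.95 and 1.35 with Ezh2 and 60.5 and 54.2 with Ezh2-Y726D. The Runx1 region rose by 2.04 ± 0.232 units (SE, limma, adjusted p = 0.00251). In Plek (pleckstrin), a region at chr11:17000943-17001828 rose by 1.54 units (limma, adjusted p = 0.0297), as did one in Dock2, an exchange factor for Rac, at chr11:34242679-34243533, by 1.52 units (limma, adjusted p = 0.0339). The region near Evi2a at chr11:79519716-79520368 dropped by 1.68 units (limma, adjusted p = 0.0163), from 73.6, 76.7 and 81.2 in GFP to 48.3 and 6.15 in Ezh2-Y726D libraries, which differed widely from each other.

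With Ezh2, 0 of the 86 regions ranked higher than in GFP (1.59% of all, limma) and 4 ranked lower (4.65%, against 2.84% of all). These lay in Cyth4 (chr15:78602876-78603429, −1.26 units, adjusted p = 0.0275), in Spi1, which encodes PU.1 (chr2:91084190-91084854, −0.965 units, adjusted p = 0.0320), in Runx1 (chr16:92645892-92647049, −0.907 units, adjusted p = 0.0159) and next to Cd37 (chr7:45240376-45241483, −0.78 units, adjusted p = 0.0431), all by limma. The 4 lower calls became 1 without GFP replicate 1, GFP replicate 3 or Ezh2 replicate 1, became 2 without GFP replicate 2 or Ezh2 replicate 3, and 1 by the rank of −log10 p. At an unadjusted p under 0.05, limma called 3 of the 86 regions higher and 14 lower. The share over all regions at that threshold was not counted, so no direction is read from these numbers. By the rank of −log10 p, 1 higher call passed the adjustment.

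Between the 2 forms of the enzyme, 4 of the 86 regions ranked higher with Ezh2 than with Ezh2-Y726D (4.65%, against 7% of all, limma) and 16 ranked lower (18.6%, against 6.96% of all), or 7 and 6 by the rank of −log10 p. The 111 of 355 regions in every Ezh2 and no Ezh2-Y726D list were not among the 86 and could not be called higher. Without Ezh2 replicate 1, or without Ezh2-Y726D replicate 2, 2 regions ranked higher. The largest differences were in the Runx1 region at chr16:92823268-92824471 (−2.08 units, limma, adjusted p = 0.00109), at the Cd37 region (−2 units, limma, adjusted p = 0.000803), in Srgn, which encodes the granule proteoglycan serglycin (chr10:62500056-62500591, −1.93 units, limma, adjusted p = 0.00101), and in Dock2 (chr11:34768995-34769792, −1.76 units, limma, adjusted p = 0.00187). In the Cd37 region, which also covers the promoter of Slc6a16, percentiles were 62.6, 50.2 and 57.3 in GFP, 36.2, 21.7 and 34.0 with Ezh2 and 89.5 and 87.8 with Ezh2-Y726D, without overlap between the groups.

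Marker lists of single cell types moved with the 10 genes to different degrees. The 12 T cell markers had 74 to 91 peaks in GFP, 108 to 110 in Ezh2 and 49 and 51 in Ezh2-Y726D libraries (61.5% of GFP). Of these 12, 9 were lower in each Ezh2-Y726D than each GFP list, against 12% of all genes with a peak. Cd8a, which marks cytotoxic T cells, had 2, 2 and 5 peaks in GFP and 0 and 0 in Ezh2-Y726D libraries. The 12 microglia and macrophage markers had 46 to 54, 58 to 61, and 34 and 35 peaks (69.9% of GFP), with 5 of 12 lower (again 12% of all genes). Among these, Tmem119, a marker of resident microglia, had 2, 2 and 3 peaks in GFP and 0 and 0 in Ezh2-Y726D libraries. Both lists thus lay below the GFP level with Ezh2-Y726D and above it with Ezh2, without overlap between groups. The rise with Ezh2 was not particular to them. It was 1.336 times the GFP mean for the T cell and 1.203 for the microglia list, next to 1.172 for the RGC markers, also without overlap. For the endothelial markers it was 1.171.

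The 8 neutrophil markers had few peaks, 6 to 12 in GFP, 11 to 16 in Ezh2 and 6 and 6 in Ezh2-Y726D libraries (69.2% of GFP), with overlap between groups. Ly6g and S100a9 were the only ones of the 8 with 0 in all 8 lists. Csf3r had 2, 3 and 4 peaks in GFP, 5, 3 and 4 with Ezh2 and 1 and 1 with Ezh2-Y726D. The 8 B cell markers had 28 to 35, 32 to 39, and 26 and 29 peaks (90.7% of GFP). For the 15 RGC markers the numbers were 52 to 61, 62 to 69, and 49 and 53 (90.5% of GFP). Isl1, Isl2 and Thy1 were lower in each Ezh2-Y726D than each GFP list, as were 12% of all genes with a peak. Stmn2 went the other way, with 5, 5 and 6 peaks in GFP and 8 and 7 with Ezh2-Y726D, as did 1576 of the 21887 protein-coding genes. Thy1, the antigen used for the sort, had 4, 3 and 4 peaks in GFP, 3, 3 and 4 with Ezh2 and 2 and 2 with Ezh2-Y726D. For 9 rod markers the numbers were 55 to 59 in GFP, 48 to 52 with Ezh2 and 46 and 50 with Ezh2-Y726D (83.7% of GFP), so both forms lay below GFP without overlap, unlike the leukocyte lists. The 8 endothelial markers stood at 91.0% and the 10 Müller glia markers at 105% of GFP with Ezh2-Y726D. The part of these cell types in the values of the 10 genes was not tested.

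**Figure D4:**
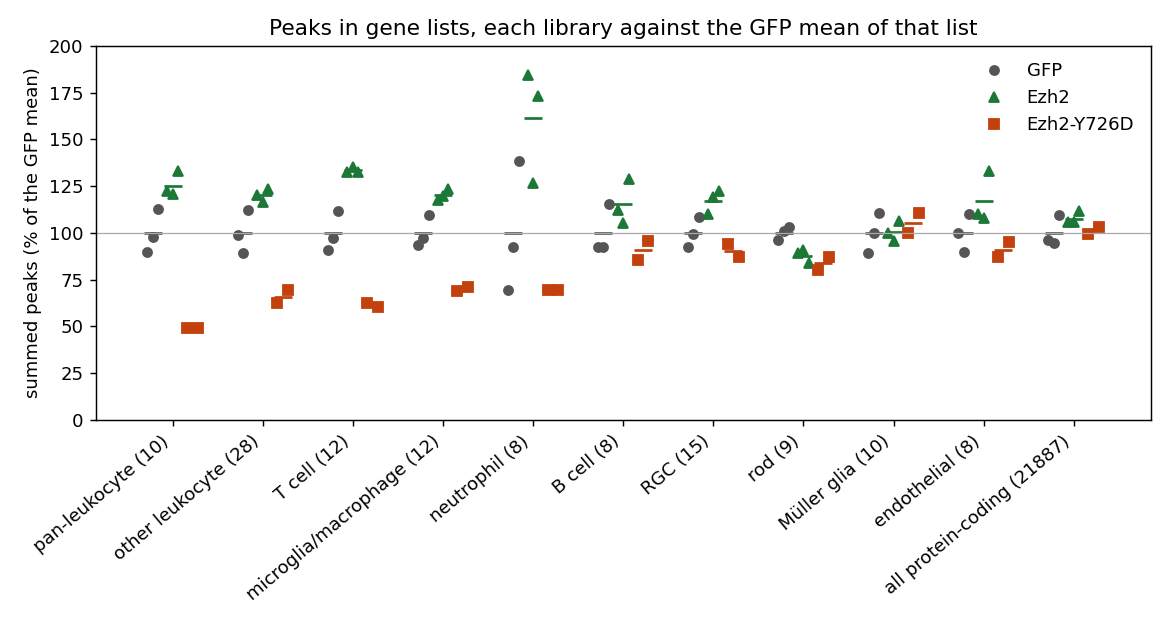
Summed number of peaks in each gene list as a percent of the GFP mean of that list (vertical axis, GFP mean at 100), for 11 lists with their number of genes (horizontal axis), 1 symbol per library and a bar at each group mean. Ezh2-Y726D libraries lie lowest for the pan-leukocyte genes, at 48.9%, and near 100% over all protein-coding genes.

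The genes most like the 10 in their pattern of peak numbers over the 8 libraries were Ehd4, Cmklr1, Rftn1, Vmp1 and Pde4c, with Pearson correlations of 0.993, 0.991, 0.99, 0.988 and 0.986 to the summed number, among 6262 genes with a mean of at least 5 peaks. Cmklr1, a chemerin receptor, had 7, 7 and 9 peaks in GFP, 9, 10 and 11 with Ezh2 and 3 and 3 with Ezh2-Y726D. Rftn1, a raft protein of lymphocytes, had 24, 23 and 27, then 31, 29 and 32, then 15 and 15. The correlations are a ranking over 8 libraries that share their list lengths and groups, and carry no test.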

How the data were processed

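ATAC-seq peaks of 8 libraries (3 GFP, 3 Ezh2, 2 Ezh2-Y726D, grouped by sample title) were analysed. Peak calling by the authors was done per sample, without pooling, and they deposited 1 narrowPeak list per sample. Per the labels, the submitters' processing notes name cutadapt, Bowtie2, SAMtools, Picard, MACS2 and deepTools and the build GRCm38; the caller's settings are not given in the sources used here, and the lowest −log10 q was 1.31 to 1.38. The deposited fold is the ratio of the summit pileup to the local background. The −log10 p-value of each deposited peak, and its −log10 q-value, come from the caller used by the authors. The deposited score was not used as a result. No counts or depths are in the lists, so no interval could be given.

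Peaks sharing at least 1 bp were merged into regions, and a region took its highest peak per list. Fold was turned into a percentile within the list, because folds of libraries of unknown depth cannot be compared directly. Gene positions and promoters came from RefSeq (GRCm38.p6). Regions with a peak in all 8 lists were ranked, turned into normal scores and fitted with limma 3.58.1 in R 4.3.3 (all groups in 1 fit, no block, Benjamini-Hochberg adjusted p under 0.05). Interval operations and the limma step were tested on simulated data. Alternatives were a −log10 q of at least 5, lists of equal length, the gene body without margin, a peak covering at least 0.5 of a region, ranks of −log10 p, a replicate block and leaving out each library. The 10 genes were all described, with the region at the start (for Itgb2 and Rac2, whose strand the annotation table does not give, the region at a gene boundary) and the region with the highest mean percentile named for each. That mean was taken only over the lists with a peak in the region. Up to 4 called regions per comparison with the largest limma difference were named for the 28 other leukocyte genes, as were the 5 genes most alike in peak number and marker genes where 5 or fewer were counted. Other regions of the 10 genes that are described, and Selplg, Cd8a, Tmem119, Ly6g, S100a9 and the 4 RGC marker genes given as examples, were chosen after their values were seen. The members and all gene lists were chosen with earlier results of these data known. The rod list was used without 1 of its markers, which is not reported here.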

Additional observations from a re-analysis of the deposited data

Results flagged for a closer look

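Opposite directions from GFP stood out for the number of peaks, where every Ezh2 library was above all GFP libraries and every Ezh2-Y726D library below them. Ikzf1 differed from GFP by 5 peaks with Ezh2 and by −8.333 with Ezh2-Y726D, a span of 13.33 peaks between the means. Itgb2 differed by 4.333 and −4 peaks, a span of 8.333. The same held for summed peaks of the 10 pan-leukocyte genes (span 56.33), the 28 other leukocyte genes (span 123.7), the 12 T cell markers (span 58.67) and the 12 microglia and macrophage markers (span 24.83). Of all 18690 genes with a peak, 247 (1.32%) showed this order. The difference between the 2 effects was not tested, and both use the same 3 GFP libraries.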

How the results depend on the processing

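The number of peaks was the firmer measure and the rank the weaker. Of the alternatives that change 1 choice, 176 values stayed on their side and within the spread between replicates or within 1.5 times a count, 80 moved further and 7 reversed. The difference in peaks per gene between Ezh2-Y726D and GFP (−3.77) and the 23 regions in every GFP and no Ezh2-Y726D list moved under no alternative. The cause of the other shifts was not tested.

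For the 10 genes, lists of equal length gave 1.1 more peaks per gene with Ezh2 than GFP. The gene body alone gave a difference of −2 genes with a peak for Ezh2-Y726D, and for the 28 other leukocyte genes −6.67 for Ezh2-Y726D and 0.333 for Ezh2. The strongest-peak percentile reversed for Ezh2-Y726D minus GFP to −0.236 with lists of equal length, −0.14 with the gene body alone and −8.89 by −log10 p, and for Ezh2 minus GFP to 6.09 by −log10 p. It ranged from −1.69 to 3.29 and from −3.82 to 0.0508 with 1 library left out, among them −1.33 without GFP replicate 2. Regions in every Ezh2 and no GFP list numbered 3 at a −log10 q of at least 5 and 4 with lists of equal length (7 to 11 with 1 library left out). Regions in both Ezh2-Y726D and no Ezh2 list numbered 1 at a −log10 q of at least 5 and 2 with lists of equal length (0 to 5 with 1 left out). Regions in both Ezh2-Y726D and no GFP list numbered 1 with a required cover of 0.5 (0 to 4 with 1 left out), and those in every GFP and no Ezh2 list 1 to 2 with 1 left out.

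Over all regions, limma called 2469 higher and 3233 lower for Ezh2-Y726D minus GFP, 1106 and 1977 for Ezh2 minus GFP and 4862 and 4837 for Ezh2 minus Ezh2-Y726D. Requiring a peak over at least 0.5 of the region, which leaves fewer regions to test, gave 986 and 1065, 319 and 541, and 1985 and 2335. By the rank of −log10 p, 4926 were lower for Ezh2-Y726D minus GFP, and at a −log10 q of at least 5 in all lists 2098 were. With 1 library left out the numbers were 239 to 1843 and 760 to 2359, 320 to 622 and 693 to 1499, and 1940 to 3772 and 1561 to 3870. Where a group was left with 1 library, that library was assumed to vary like the others. Among the 86 regions of the other leukocyte genes, calls for Ezh2-Y726D minus GFP were 3 higher and 9 lower by −log10 p, 11 higher at a −log10 q of at least 5 and 9 higher and 1 lower with the cover of 0.5 (1 to 13 higher and 1 to 3 lower with 1 left out). For Ezh2 minus GFP they were 1 higher and 1 lower by −log10 p and 0 lower with the cover of 0.5 (0 to 1 higher and 1 to 3 lower). For Ezh2 minus Ezh2-Y726D they were 7 higher and 6 lower by −log10 p and 1 higher with the cover of 0.5 (2 to 3 higher with 1 left out).

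Libraries with the same replicate number did not deviate together (correlations of −0.0151 to 0.0478), so the numbers were not taken as pairs. A replicate block by title gave 2156 higher and 2651 lower calls for Ezh2-Y726D minus GFP, and 2 lower calls in the leukocyte regions for Ezh2 minus GFP. Of the regions named, limma no longer called Dock2 at chr11:34242679-34243533 for Ezh2-Y726D minus GFP (adjusted p = 0.0556), nor Cyth4 (adjusted p = 0.0593) and Cd37 (adjusted p = 0.0515) for Ezh2 minus GFP. Peak names number the Ezh2-Y726D libraries 2 and 3. A replicate block by these numbers, and leaving out regions at promoters of other genes, were chosen after seeing the data. That block gave 1347 and 1897 calls for Ezh2-Y726D minus GFP and 652 and 1305 for Ezh2 minus GFP, and in the leukocyte regions 8 higher calls for Ezh2-Y726D minus GFP and 2 higher for Ezh2 minus Ezh2-Y726D.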

Other observations

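Promoters with a peak in every GFP and no Ezh2-Y726D list (201 of 17492) held the PU.1 letters in 10.4%, the ETS letters in 9.95% and the RUNX letters in 24.9% of cases. Over all promoters the shares were 2.18%, 2.64% and 12.5%, and for promoters without a peak in any list 2.14%, 2.91% and 16.4%. The letters of interferon regulatory factors were found in 15.4% of the 201 promoters (6.93% of all, 8.44% of those without a peak in any list). Those of AP-1 were found in 12.9% (6.22% of all, 9.89% of those without a peak in any list). These are counts of letters in 250 bases, without a test, and base composition differed between the classes, with a median GC content of 49.6% in the 201 promoters and 55.2% over all.

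The region just outside the 10000 bp limit of Ikzf1, 15483 bp from the gene, was among the strongest in every library, at mean percentiles of 99.4 in GFP, 99.7 with Ezh2 and 99.9 with Ezh2-Y726D, and it belongs to none of the values above.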
